A study of Homo sapiens with 24 samples.

Results

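Clone 15 and clone 20 are clones of HCT116, an epithelial line from a human colorectal carcinoma, and both carry the label wild type. They come from a study that used TALENs (programmable DNA-cutting enzymes) to make clones with and without the telomere protein Rap1 in 3 cell lines. Clones 15 and 20 were measured on 2 arrays each, which makes 4 of the 24 arrays of the study and 4 of its 12 HCT116 arrays. The other HCT116 clones, with 2 arrays each, were clone 23, labelled wild type, and clones 10, 21 and 28, labelled knockout. The comparison sets 2 clones of 1 line and 1 labelled genotype side by side. Each group is a single clone, and the labels do not say whether its 2 arrays came from separate cultures. Every p-value below therefore measures only the spread between arrays, which may be technical. Differences between the clones cannot be told apart from differences between their cultures or preparations.

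All 47323 probes of the table were compared, and a probe was described where both arrays of 1 clone lay on the same side of both arrays of the other. That held for 21233 probes, or 44.9% of all, of which 11335 (24.0%) were higher in clone 15 and 9898 (20.9%) in clone 20. Just inside this limit stood a probe of SLC5A12, whose nearest arrays were 2.5e-05 apart, and just outside it a probe of DUSP22, whose arrays overlapped by a gap of -2.8e-05. Values are log2 differences from the median of the 12 HCT116 arrays, which is 0 for every probe. They hold no levels, so the epithelial identity of the line could not be checked against absolute marker signal.

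Cells that descend from single cells of a tumour line share most of their genome but inherit the DNA changes and the expression state of their founder. Epithelial cells of the colon are held together by E-cadherin junctions and tight junctions and carry keratin filaments, whereas vimentin filaments and the factor TWIST1 are typical of mesenchymal cells. Growth-related programmes such as ribosome assembly, DNA replication and sterol synthesis are each run by sets of genes that tend to be expressed together.

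TERF2IP, which encodes Rap1 and is the gene targeted in the study, was read first as a check of the labels. Its 1 probe gave 0.12 and 0.069 in clone 15 and -0.28 and -0.26 in clone 20. The difference of 0.36 ± 0.15 (standard error of the fit, n = 2 and 2 arrays) did not pass the threshold (limma, adjusted p = 0.223), and the exact two-sided permutation test gave p = 0.33, the smallest value that 2 arrays against 2 allow. In the other HCT116 clones the probe ranged from -0.77 to 1.45. Its mean was 1.33 in clone 23, labelled wild type, and -0.22, -0.53 and 0.028 in knockout clones 10, 21 and 28. Clone 20, with a mean of -0.27, lay below clones 10 and 28, so the probe did not separate the labels. The sources used here do not place it against the altered part of the gene. None of the 6 subunits of shelterin, the complex that coats telomeres, passed by limma, against 8.69% of all genes in either direction. TERF2IP alone had an unadjusted p under 0.05.

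In a few genes 1 of the clones stood far from all other HCT116 clones. MARCKS, a membrane-bound substrate of protein kinase C that ties actin to the membrane, was low in clone 20 only, and so was a block of neighbouring genes on chromosome 1 that holds UCHL5, RO60 and GLRX2. The stretches of genome upstream of these genes are shown because the largest drops private to clone 20 belong to genes that start there. UCHL5 and RO60 are transcribed away from each other, from starts listed 102 bases apart in the RefSeq promoter table of GRCh38.p14, where UCHL5 has 3 starts and RO60 has 2. The first line below is all that lies between those starts, at chr1:193059511-193059611 on the plus strand, and the second is the 250 bases before the start of MARCKS, at chr6:113857095-113857344 on the plus strand. Capitals mark GC boxes, searched as GGGCGG and CCGCCC, and CCAAT boxes, searched as CCAAT and ATTGG, so that both strands are covered. These letters did not overlap one another in either stretch.
UCHL5-RO60: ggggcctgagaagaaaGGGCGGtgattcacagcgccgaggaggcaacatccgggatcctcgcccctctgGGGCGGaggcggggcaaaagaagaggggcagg
MARCKS: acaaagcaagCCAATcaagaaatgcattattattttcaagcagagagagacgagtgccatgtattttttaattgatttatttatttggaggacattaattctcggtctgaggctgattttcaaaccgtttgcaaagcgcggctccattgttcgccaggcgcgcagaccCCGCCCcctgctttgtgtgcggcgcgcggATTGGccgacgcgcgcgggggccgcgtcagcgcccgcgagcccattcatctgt
The stretch between UCHL5 and RO60 is 67.3% G and C, holds 7 CpG and has 2 GC boxes, a match found in 31.5% of the 35116 RefSeq promoter windows of the same length. The MARCKS stretch is 52.8% G and C, holds 23 CpG and has 1 GC box and 2 CCAAT boxes, matches found in 42.6% and 32.0% of windows of that length. These matches describe the reference sequence and say nothing of the sequence or use of these promoters in either clone.

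MARCKS stood at 0.067 and 0.024 in clone 15 and at -2.15 and -2.13 in clone 20. The arrays of the other 4 clones lay between -0.27 and 0.12, so that clone 20 alone was low, by 1.86 below the nearest array of any other clone. The difference between clones 15 and 20 was 2.19 ± 0.10, or 4.56-fold (limma, adjusted p = 9.35e-10). The 5 measured genes on each side of MARCKS were tested too. None of these 10 passed by limma, against 8.69% of all genes in either direction. HDAC2, a histone deacetylase gene nearby, came nearest to the threshold, at 0.28 (adjusted p = 0.266), and 1 of the 10 had an unadjusted p under 0.05.

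UCHL5 encodes a deubiquitinase that works on the proteasome and in the INO80 remodelling complex. Its values were 0.22 and 0.20 in clone 15 and -1.44 and -1.32 in clone 20, a difference of 1.59 ± 0.11 or 3.01-fold (limma, adjusted p = 2.13e-07). The other clones lay between -0.22 and 0.14, so again only clone 20 stood low. GLRX2, a mitochondrial glutaredoxin, gave 0.09 and 0.076 in clone 15 against -1.27 and -1.33 in clone 20. Its difference was 1.38 ± 0.13, with 1.84 from a second probe, while its remaining probe gave -0.044 and did not pass (limma, adjusted p = 0.912).

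RO60 lies between them in the order of measured genes and encodes the Ro60 autoantigen, a ring-shaped protein that binds and protects small noncoding Y RNAs. It was singled out after its values were seen. Its chosen probe read 0.33 and 0.23 in clone 15 and -0.81 and -0.65 in clone 20, a difference of 1.01 ± 0.12 (limma, adjusted p = 4.69e-05). The other RO60 probes gave 1.35, 1.21 and 0.73, and all 4 passed. The flanking genes RGS2 and CDC73 differed by 0.24 each and did not pass (limma, adjusted p = 0.272 and 0.343), so the 2-fold step covered 3 adjacent measured genes. No other run of 3 neighbours reached 2-fold in 1 direction without overlap. The 3 runs of 2 were TNFSF18 with TNFSF4 on chromosome 1, KRT80 with KRT7 on chromosome 12 and RNY5 with RNY4 on chromosome 7.

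Of the 4 Y RNA genes, whose products bind Ro60, 3 passed higher in clone 15 as well, against 5.2% of all genes. They were listed after RNY1 had been seen among the largest differences, so RNY1 was certain to count among the 3. RNY1 stood at 0.53 and 0.63 in clone 15 and at -1.12 and -1.20 in clone 20, while the other clones ranged from -0.50 to 0.26. The difference was 1.74 ± 0.12 (limma, adjusted p = 1.44e-07). RNY4 gave 0.34 and 0.32 against -0.83 and -0.77, a difference of 1.12 ± 0.12, and RNY5 gave 0.19 and 0.32 against -0.73 and -0.92, a difference of 1.08 ± 0.11 (limma, adjusted p = 1.91e-05 and 2.02e-05). RNY3, the remaining Y RNA gene, gave -0.15 and -0.24 against 0.17 and -0.34, which overlapped (-0.11 ± 0.20, limma, adjusted p = 0.861). SSB, which encodes La, another protein that binds Y RNAs, differed by 0.28 ± 0.11 and did not pass (limma, adjusted p = 0.196). Y RNA genes lie together on chromosome 7, and the genome holds many near-identical copies of them, so a probe may read more than 1 transcript. Whether these probes read the mature Y RNAs was not tested. RO60, RNY1, RNY4 and RNY5 passed in each of the 4 fits that left out 1 array.

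**Figure D1:**
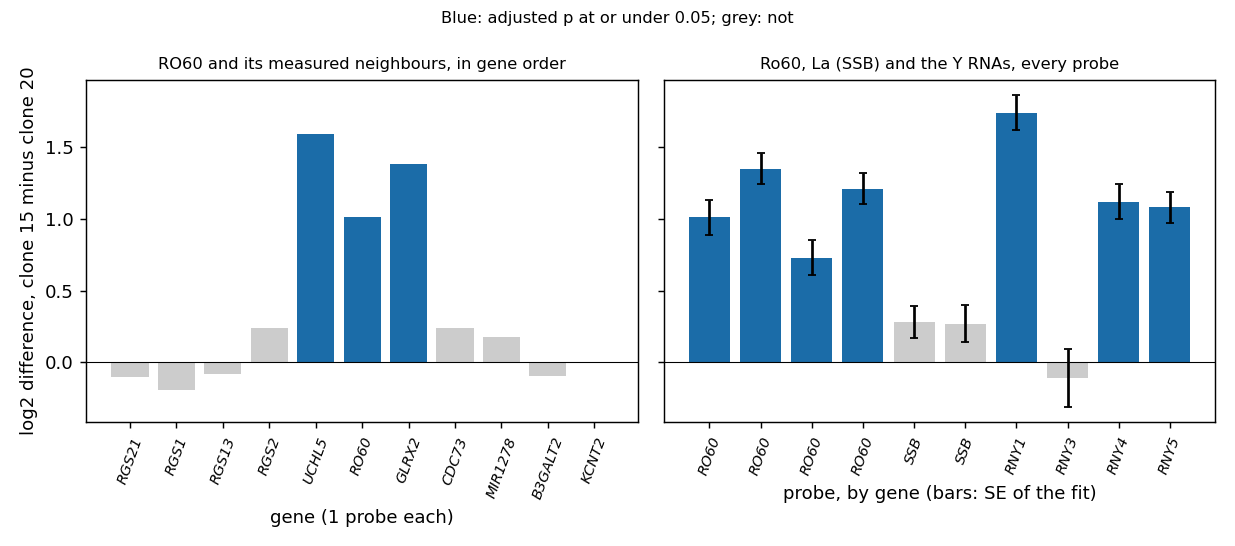
Log2 difference between clone 15 and clone 20 (vertical axis) for RO60 and its measured neighbours in gene order (left, 1 probe each) and for every probe of RO60, SSB and the Y RNA genes (right, error bars are the standard error of the fit). Blue bars had an adjusted p at or under 0.05: UCHL5, RO60 and GLRX2 on the left, from 1.01 to 1.59, and on the right all 4 RO60 probes, RNY1, RNY4 and RNY5, but neither SSB nor RNY3.

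Across all probes, 2828 passed the threshold of adjusted p 0.05 (limma, Benjamini-Hochberg over all probes), which is 5.98%, with 1777 (3.76%) higher in clone 15 and 1051 (2.22%) higher in clone 20. None of them overlapped between the clones. The total was 1036 without clone 15 replicate 1, 1062 without clone 15 replicate 2, 839 without clone 20 replicate 1 and 1592 without clone 20 replicate 2. With 1 probe per gene, 10096 of 20046 genes did not overlap (50.4%), 5577 (27.8%) higher in clone 15 and 4519 (22.5%) in clone 20. Of these, 1741 passed (8.69% of all genes), 1042 (5.2%) higher in clone 15 and 699 (3.49%) higher in clone 20. The count higher in clone 15 was 346 and 351 without clone 15 replicates 1 and 2, and 241 and 621 without clone 20 replicates 1 and 2. The count higher in clone 20 was 313 and 319, and 316 and 331, in the same order. Most of these differences were small, with a median of 1.43-fold, and 1163 of the 1741 genes (66.8%) were under 1.5-fold. The median difference over all genes was 0.007. How the arrays were normalized to one another before deposit is not given, so this median does not bear on a shift of a whole clone. The medians by chromosome ran from -0.016 on X to 0.037 on chromosome 21, but without 1 array the lowest ranged from -0.038 (without clone 15 replicate 2) to 0.018 (without clone 15 replicate 1) and the highest from 0.011 to 0.071.

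A difference of at least 2-fold without overlap was measured for 88 probes (0.186%), 43 (0.0909%) higher in clone 15 and 45 (0.0951%) in clone 20, and for 65 genes (0.324%), of which 27 (0.135%) were higher in clone 15 and 38 (0.19%) in clone 20. The arrays of 1 clone differed from each other by 2-fold at 4 probes in clone 15 and 9 in clone 20, against 99 to 117 probes between an array of clone 15 and an array of clone 20. Of the 65 genes, 21 had only clone 15 outside the range of the other 4 clones, 23 only clone 20, 13 both and 8 neither. Over all 20046 genes these counts were 1852, 1304, 430 and 16460. The 65 were picked for a large difference between clones 15 and 20, which by itself favours values outside that range. In 6 genes a clone stood at least 2-fold beyond every array of the 5 other clones. These were KRT7 and SLC1A3, high in clone 15, MARCKS, UCHL5 and ACSL5, low in clone 20, and TESC, high in clone 20. The largest difference of all was of a probe with no gene name in the annotation used, ILMN_1739001, at 2.99 and 2.69 in clone 15 and -0.13 and -0.04 in clone 20 (2.93 ± 0.12, limma, adjusted p = 2.60e-10).

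**Figure D2:**
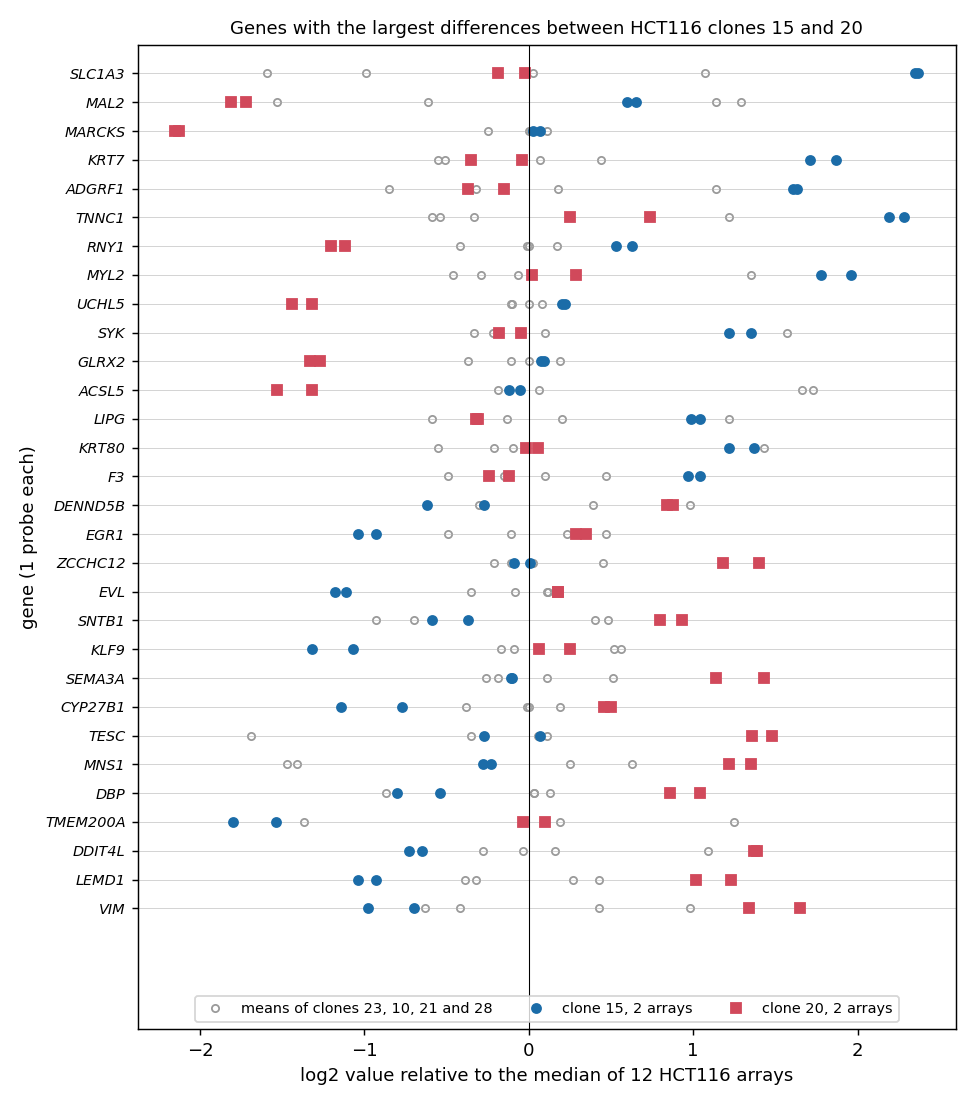
Log2 value relative to the median of the 12 HCT116 arrays (horizontal axis) for the 15 genes with the largest difference in each direction, with both arrays of clone 15 (blue circles), both arrays of clone 20 (red squares) and the means of the other 4 clones (open grey circles). For MARCKS and UCHL5 only clone 20 stands away from the rest, at -2.15 to -1.32, while for VIM the other clones fill the space between.

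SLC1A3, a glutamate and aspartate transporter, read 2.37 and 2.35 in clone 15 and -0.19 and -0.022 in clone 20, a difference of 2.47 ± 0.11 or 5.52-fold (limma, adjusted p = 4.47e-10). Both arrays of clone 15 were above every other HCT116 array, the highest of which stood at 1.13. MAL2, which carries proteins to the apical membrane of epithelial cells, read 0.65 and 0.60 against -1.81 and -1.72 (2.38 ± 0.11, limma, adjusted p = 4.47e-10). Clone 20 was the lowest clone for MAL2, but clone 21, with a mean of -1.53, was close to it. TNNC1, the slow and cardiac troponin C, read 2.28 and 2.19 against 0.25 and 0.74, and MYL2, a ventricular myosin light chain, read 1.78 and 1.96 against 0.29 and 0.017. Their differences were 1.74 ± 0.14 and 1.72 ± 0.12, and clone 23 also stood high, with means of 1.22 and 1.35. Of 19 measured sarcomere genes, a list drawn up after these were seen, TNNC1 and MYL2 were the 2 that passed higher in clone 15 (10.5%, against 5.2% of all genes), and the median of the list was -0.041.

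ADGRF1, an adhesion G protein-coupled receptor, differed by 1.88 ± 0.12, but its other probes gave 1.05, 0.38 and -0.17. SYK, a tyrosine kinase of immune receptor signalling that epithelial cells also express, differed by 1.40 ± 0.12, and clone 28 was as high as clone 15, with a mean of 1.57. ACSL5, an acyl-CoA synthetase of the intestine, read -0.055 and -0.12 in clone 15 and -1.53 and -1.32 in clone 20 (1.34 ± 0.11), and of its 4 other probes 1 gave 1.29 and the others -0.17, 0.06 and 0.052. Clones 10 and 28 stood far above both, at means of 1.73 and 1.66. LIPG, endothelial lipase, was higher in clone 15 than in clone 20 by 1.33 ± 0.11. Clone 10 was higher still for LIPG, at a mean of 1.22 against 1.02 in clone 15. F3, tissue factor, the trigger of blood clotting, was higher in clone 15 by 1.18 ± 0.11.

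VIM, which encodes vimentin, was the gene with the largest difference toward clone 20. It stood at -0.70 and -0.98 in clone 15 and at 1.34 and 1.65 in clone 20, a difference of -2.33 ± 0.13 or 5.04-fold (limma, adjusted p = 6.84e-09), and its second probe gave -1.18. Clone 23 was nearly as high, with a mean of 0.98, and clone 10 was nearly as low as clone 15, with a mean of -0.63. LEMD1, a LEM domain gene of the cancer-testis kind, read -0.93 and -1.04 against 1.02 and 1.23 (-2.11 ± 0.13). The arrays of the other 4 clones lay between those of clones 15 and 20, from -0.56 to 0.49. DDIT4L, an inhibitor of mTOR signalling, read -0.65 and -0.73 against 1.39 and 1.37 (-2.07 ± 0.11), and clone 23 also stood high, with a mean of 1.09. TESC, the calcium-binding protein tescalcin, read 0.07 and -0.27 against 1.36 and 1.48 (-1.52 ± 0.13), and no other clone's array was above 0.24.

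DBP, an output factor of the circadian clock, read -0.54 and -0.80 in clone 15 and 0.86 and 1.04 in clone 20 (-1.62 ± 0.13). KLF9, a glucocorticoid-responsive factor, differed by -1.35 ± 0.12 and EGR1, an immediate early factor induced by growth signals, by -1.31 ± 0.12. For KLF9, EGR1 and EVL, an actin regulator that differed by -1.33 ± 0.10, clone 15 was the low one, below every array of the other clones. CYP27B1, which activates vitamin D, differed by -1.43 ± 0.12 and SEMA3A, a secreted guidance cue, by -1.39 ± 0.12. The others were TMEM200A (-1.70), MNS1 (-1.54, and -0.95 from its second probe), SNTB1 (-1.35), ZCCHC12 (-1.33) and DENND5B (-1.30). All 30 genes named for their size passed in each of 10 other settings, and the 9 of them with further probes each had a second probe past the threshold in the same direction, although 3 of the 15 further probes had the opposite sign.

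Epithelial junction and polarity genes leaned toward clone 15. Of 41 measured members, 14 passed higher in clone 15 (34.1%, against 5.2% of all genes) and 1, CLDN3, passed higher in clone 20. The median difference of the list was 0.21, against 0.007 for all genes. EPCAM, an epithelial adhesion molecule, read 0.30 and 0.35 in clone 15 and -0.75 and -0.48 in clone 20 (0.95 ± 0.12, limma, adjusted p = 1.61e-04), and its other probes gave 0.59 and 0.61. CDH1, which encodes E-cadherin, read 0.038 and 0.089 against -0.66 and -0.58 (0.68 ± 0.11, limma, adjusted p = 7.90e-04). GRHL2, a transcription factor of epithelial genes, differed by 0.85 ± 0.11, the claudin gene CLDN7 by 0.82 ± 0.12 and AP1M2, an adaptor subunit for basolateral sorting, by 1.01 ± 0.12. Tight junction genes below the threshold included OCLN at 0.21 and CLDN4 at 0.36, and CLDN1 stood at -0.33. When 1 array was left out, 8 passed without clone 15 replicate 1 or clone 20 replicate 1, 9 without clone 15 replicate 2 and 12 without clone 20 replicate 2, higher in clone 15 in each case. CLDN3 passed in none of these fits.

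Keratins differed mainly through a pair of neighbours. KRT7, a simple epithelial keratin unusual in colon, read 1.71 and 1.87 in clone 15 and -0.041 and -0.35 in clone 20 (1.99 ± 0.14, limma, adjusted p = 2.47e-07). The highest array of any other clone was 0.46. KRT80, which lies beside it in the order of measured genes, read 1.22 and 1.37 against -0.014 and 0.054 (1.27 ± 0.13), and clone 10 was as high as clone 15. KRT8 (0.47 ± 0.11) and KRT15 (0.45 ± 0.12) also passed, which makes 4 of 12 measured keratins (33.3%, against 5.2% of all genes), but these 2 passed in none of the 4 fits that left out 1 array. KRT18, the partner of KRT8 in simple epithelia, and KRT20, a marker of mature colon cells, differed by 0.28 and 0.18 and did not pass.

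Mesenchymal and matrix genes differed through few members. Of 32 measured members, 5 passed higher in clone 20 (15.6%, against 3.49% of all genes) and 1 higher in clone 15, and the median was -0.13. TWIST1, a transcription factor of mesenchymal cells, read 0.019 and 0.22 in clone 15 and 1.24 and 1.47 in clone 20 (-1.23 ± 0.13, limma, adjusted p = 1.82e-05), and no other clone's array exceeded 0.41. TIMP1 (-0.52 ± 0.10), SPARC (-0.50 ± 0.13) and ITGA5 (-0.38) passed in the same direction as VIM. CAV1, the caveolin of membrane pits, went the other way, at 0.44 and 0.52 against -0.40 and -0.34 (0.85 ± 0.11). ZEB1, ZEB2, SNAI1 and SNAI2, the other main repressors of E-cadherin, differed by -0.19, -0.091, -0.052 and -0.079, and FN1 and CDH2 by 0.13 and 0.061, all short of the threshold. The count higher in clone 20 was 2 without clone 15 replicate 1 or clone 20 replicate 2, and 3 without either of the other arrays.

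Of 29 measured ribosome biogenesis genes and MYC targets, 19 passed higher in clone 15 (65.5%, against 5.2% of all genes). In that direction 27 of the 29 members did not overlap, a much larger share than the 27.8% of all genes. None passed toward clone 20 by limma, where none had an unadjusted p under 0.05 either, and the median was 0.49. SRM, spermidine synthase, read 0.41 and 0.64 in clone 15 and -0.44 and -0.36 in clone 20 (0.93 ± 0.12, limma, adjusted p = 1.93e-04). RRP12, which helps export ribosomal subunits, differed by 0.86 ± 0.11, the nucleolar protein gene NOLC1 by 0.83 ± 0.11, and the ribosome assembly factors MRTO4 and RRS1 by 0.76 ± 0.12 and 0.74 ± 0.12. The member that went against the rest was NPM1, nucleophosmin, at -0.21, short of the threshold. MYC itself, held in the list of WNT targets, read 0.13 and 0.10 against -0.38 and -0.49 (0.55 ± 0.10, limma, adjusted p = 0.00392). The count of 19 was 13 without clone 15 replicate 1, 10 without clone 15 replicate 2 or clone 20 replicate 1, and 15 without clone 20 replicate 2. By array, the list's median was 0.29 and 0.28 in clone 15 and -0.31 and -0.20 in clone 20, with the other clones between, from -0.12 to 0.12.

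Proliferation genes were read by phase. Of 39 measured genes of DNA replication and the G1/S step, 15 passed higher in clone 15 (38.5%, against 5.2% of all genes), with a median of 0.31. CDC25A, a phosphatase that releases cyclin-dependent kinases, read 0.68 and 0.63 against -0.31 and -0.053 (0.84 ± 0.12, limma, adjusted p = 4.43e-04). CCND1, cyclin D1, read 0.54 and 0.44 against -0.18 and -0.079 (0.62 ± 0.10), and the replication initiation factors MCM10, ORC1 and ORC6 differed by 0.60 ± 0.11, 0.63 ± 0.14 and 0.57 ± 0.13. PCNA (0.062), E2F1 (0.068) and TYMS (0.062) did not pass. Of 40 mitosis, spindle and kinetochore genes, 4 passed higher in clone 15 (10%, near the 5.2% of all genes), with a median of 0.13. These were MAD2L1, a spindle checkpoint protein (0.78 ± 0.15), UBE2C, which works with the anaphase-promoting complex (0.71 ± 0.15), the mitotic kinase gene PLK1 (0.48 ± 0.12) and CCNB1, cyclin B1 (0.46 ± 0.11). The difference between the lists was not tested. By array, the replication median was 0.15 and 0.17 in clone 15 and -0.20 and -0.063 in clone 20. Among the other clones it ran from -0.20 in clone 10 to 0.099 in clone 23. The mitosis median was 0.15 and 0.082 in clone 15 and -0.024 and 0.026 in clone 20. Among the other clones that median ran from -0.22 in clone 10 to 0.092 in clone 28. The replication count was 5 and 4 without clone 15 replicates 1 and 2, 3 without clone 20 replicate 1 and 13 without clone 20 replicate 2, and the mitosis count was 0, 2, 1 and 2 in the same order.

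Of 27 measured genes of cholesterol and fatty acid synthesis, 12 passed higher in clone 15 (44.4%, against 5.2% of all genes) and the median was 0.35. HMGCS1, an early enzyme of the mevalonate pathway, read 0.55 and 0.43 in clone 15 and -0.61 and -0.56 in clone 20 (1.08 ± 0.12, limma, adjusted p = 2.69e-05). IDI1, CYP51A1 and MVK, which follow in the sterol pathway, differed by 0.72 ± 0.13, 0.68 ± 0.11 and 0.60 ± 0.12, and FASN, fatty acid synthase, by 0.61 ± 0.11. The genes of their regulators, SREBF2 (-0.051) and SREBF1 (0.18), did not pass. The count was 5 without clone 15 replicate 1 or clone 20 replicate 1, 6 without clone 15 replicate 2 and 7 without clone 20 replicate 2. By array, the list's median was 0.077 and 0.12 in clone 15 and -0.24 and -0.21 in clone 20, and among the other clones it ran from -0.16 in clone 21 to 0.20 in clone 28.

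**Figure D3:**
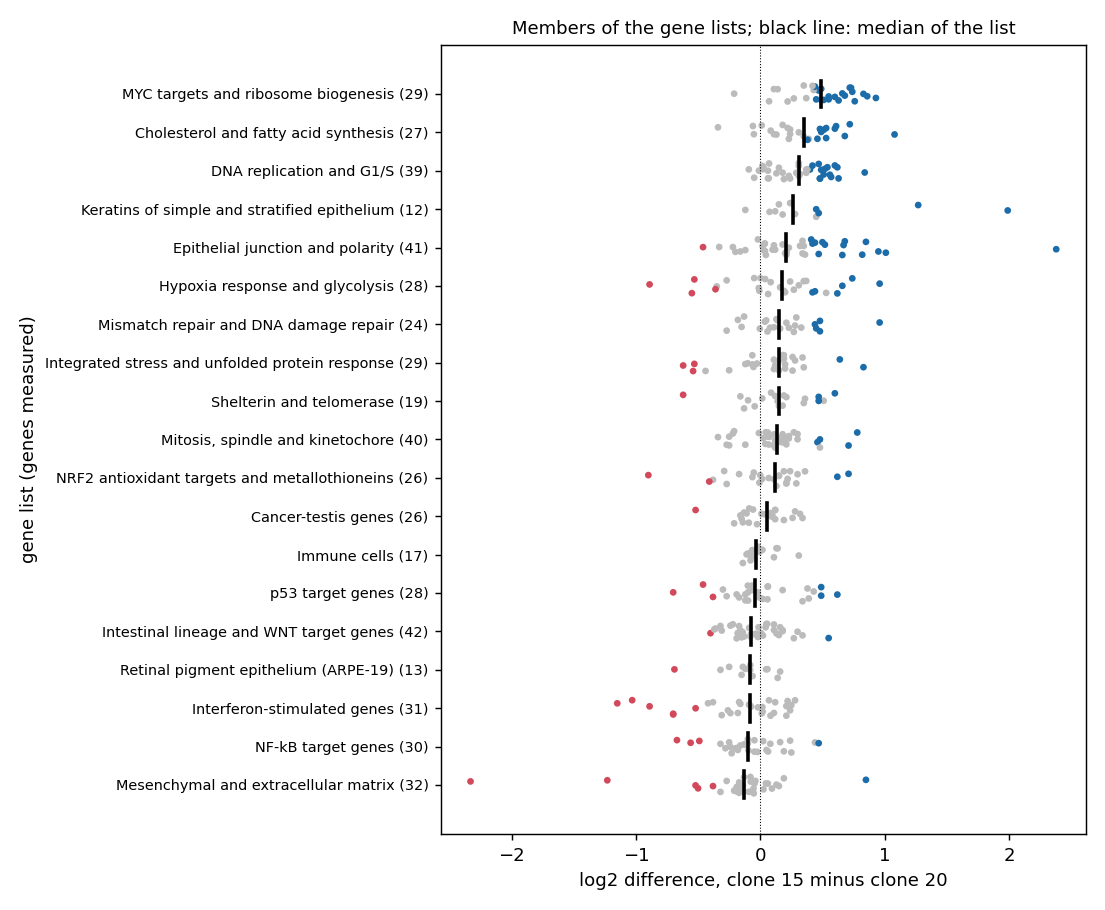
Log2 difference between clone 15 and clone 20 (horizontal axis) for each measured member of 19 gene lists, ordered by their median (black line), with members past the threshold in blue (higher in clone 15) or red (higher in clone 20) and the others in grey. The medians run from -0.13 for mesenchymal and matrix genes to 0.49 for MYC targets and ribosome biogenesis.

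**Figure D4:**
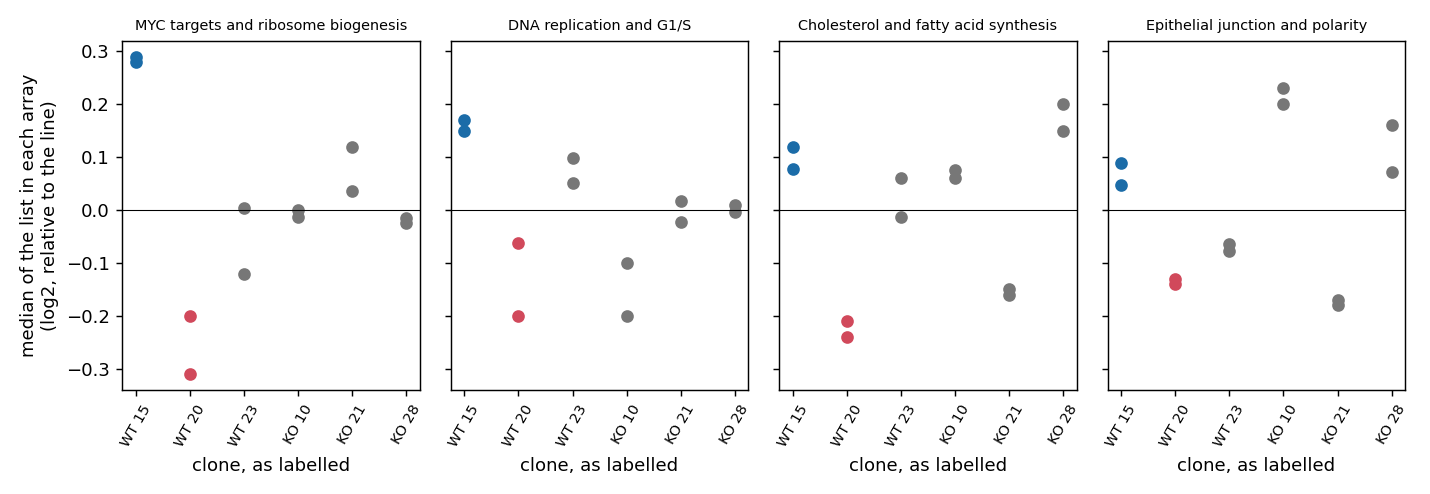
Median log2 value of 4 gene lists in each of the 12 HCT116 arrays (vertical axis), by clone as labelled, with clone 15 in blue, clone 20 in red and the other clones in grey. For MYC targets and ribosome biogenesis clone 15 is the highest and clone 20 the lowest clone, whereas for epithelial junction genes clone 10 is above clone 15 and clone 21 below clone 20.

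Interferon-stimulated genes included 6 of 31 that passed higher in clone 20 (19.4%, against 3.49% of all genes). IFIT1, a sensor of foreign RNA caps, read -0.18 and -0.45 in clone 15 and 0.90 and 0.76 in clone 20 (-1.15 ± 0.12, limma, adjusted p = 1.80e-05), but its second probe gave -0.11. IFIH1, the RNA sensor MDA5, differed by -1.03 ± 0.12, IFI6 by -0.89 ± 0.11, IRF9, a subunit of the interferon-activated factor, by -0.70 ± 0.11 and IFI35 by -0.70 ± 0.11. ISG15, MX1 and OAS1, strongly induced members, stood at 0.019, 0.12 and -0.086, short of the threshold. The median of the list was -0.086, and -0.053 without clone 15 replicate 1 or -0.045 with the probe of largest variance over HT1080.

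Among DNA repair genes, 5 of 24 measured passed higher in clone 15 (20.8%, against 5.2% of all genes). MSH6, a mismatch recognition protein, read 0.82 and 0.96 in clone 15 and -0.16 and 0.009 in clone 20 (0.96 ± 0.11, limma, adjusted p = 6.20e-05). TOPBP1 (0.48 ± 0.11), FANCI (0.48 ± 0.12), CHEK1 (0.45 ± 0.11) and XRCC5 (0.44 ± 0.11) were the others. MSH6 alone passed without clone 15 replicate 1, clone 15 replicate 2 or clone 20 replicate 1, and all 5 without clone 20 replicate 2. Of 19 measured shelterin and telomerase genes, 3 passed higher in clone 15 (15.8%, against 5.2% of all genes) and 1 higher in clone 20 (5.26%, against 3.49%). Those higher in clone 15 were DKC1, the pseudouridine synthase dyskerin (0.60 ± 0.12), NHP2 (0.47 ± 0.12) and PINX1 (0.47 ± 0.14). STN1, of the complex that caps telomere ends (-0.62 ± 0.11), was the 1 higher in clone 20. NHP2 and PINX1 passed in none of the fits without 1 array. DKC1, which belongs to the ribosome list as well, did not pass without clone 15 replicate 2 or clone 20 replicate 1, nor STN1 without clone 15 replicate 1.

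The next 5 lists had members past the threshold in both directions, to be read against 5.2% of all genes higher in clone 15 and 3.49% higher in clone 20. Of 28 hypoxia and glycolysis genes, 6 (21.4%) passed higher in clone 15 and 4 (14.3%) higher in clone 20. ADM, adrenomedullin, read 0.62 and 0.58 against -0.34 and -0.38 (0.96 ± 0.12), the glucose transporters SLC2A3 and SLC2A1 differed by 0.74 ± 0.11 and 0.62 ± 0.11 and hexokinase HK2 by 0.66 ± 0.12, whereas ENO2, an enolase, differed by -0.89 ± 0.12. Targets of p53 also divided, with 3 of 28 each way (10.7%), led by GDF15 (-0.70 ± 0.13) and TP53I3 (0.62 ± 0.11). Stress response genes gave 2 of 29 higher in clone 15 (6.9%), led by ATF5 (0.83 ± 0.12), and 3 higher in clone 20 (10.3%), led by PCK2 (-0.62 ± 0.13). NF-kB targets gave 1 of 30 (3.33%) and 3 (10%), led by LCN2 (-0.67 ± 0.12), and antioxidant and metallothionein genes gave 2 of 26 each way (7.69%), led by ABCC3 (-0.90 ± 0.13). With 1 array left out, the counts higher in clone 15 and in clone 20 were 3 to 6 and 1 to 2 for hypoxia, 1 to 2 and 1 for p53, 1 to 2 and 0 to 1 for stress, 0 and 1 to 2 for NF-kB and 0 to 2 and 1 for the antioxidant list.

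Intestinal lineage and WNT target genes gave 1 of 42 in each direction (2.38%), MYC and AXIN2, a feedback inhibitor of WNT signalling that read 0.02 and -0.02 in clone 15 and 0.35 and 0.46 in clone 20 (-0.40 ± 0.11). AXIN2 passed in none of the fits without 1 array. Cancer-testis genes gave 1 of 26, PRAME, higher in clone 20 (3.85%, against 3.49% of all genes; -0.52 ± 0.10). PRAME did not pass without clone 15 replicate 2 or clone 20 replicate 1. Of markers of other cells, 0 of 17 immune cell genes were past the threshold by limma (1 at an unadjusted p under 0.05). These are too few genes to tell from the 8.69% of all genes that passed in either direction. Of 13 genes of retinal pigment epithelium, the cell type of another line in the study, 1 passed, higher in clone 20 (7.69%, against 3.49% of all genes). That gene was MERTK, a receptor for the uptake of dead cells (-0.69 ± 0.13), and it did not pass without clone 20 replicate 1.

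Set beside the other pairs of HCT116 clones, clones 15 and 20 had many probes past the threshold but few at 2-fold. The 15 pairs share arrays and a single estimate of spread. Clones 15 and 20 ranked 13 from the lowest by probes past the threshold, in a range from 430 to 3855. By probes at 2-fold without overlap they ranked 4 from the lowest, in a range from 49 to 257. Their share of probes without overlap was 44.9%, in a range from 40.6% to 56.1%. Their count past the threshold fell when 1 array was left out, as given above. Clone 20 against clone 23 gave 430 and 49, and clone 15 against clone 23 gave 944 and 63. Clones 10 and 28, both labelled knockout and sharing no array with clones 15 and 20, gave 1024 probes past the threshold (2.16%), 139 at 2-fold (0.294%) and 47.0% without overlap. Counts past the threshold for that pair were 405 to 548 with 1 of its arrays left out, the lowest without clone 10 replicate 2 and the highest without clone 28 replicate 2.

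**Figure D5:**
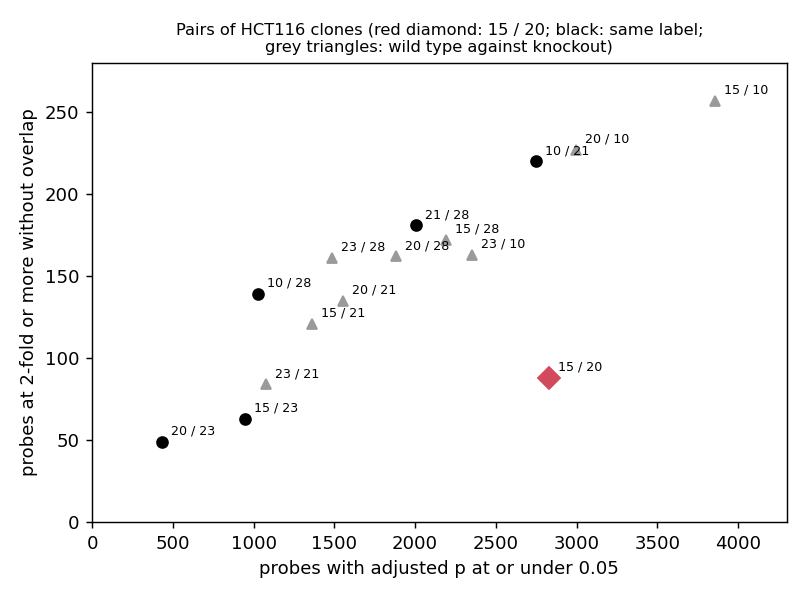
Number of probes past the threshold (horizontal axis) and number of probes at 2-fold or more without overlap (vertical axis) for the 15 pairs of HCT116 clones, with the numbers of the clones beside each point. The pair 15 and 20 (red diamond) stands at 2828 and 88, to the right of pairs with a like number of 2-fold probes.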

How the data were processed

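The arrays were Illumina expression arrays. The labels give total RNA as the starting material, QIAGEN RNeasy extraction, an Ambion MessageAmp kit and biotin as the label. The deposited values are on a log scale, taken as log2 because the base is not given in the sources used here. The table shows that the authors' values are centred per probe on the median of each cell line (largest HCT116 median 5e-07). Background correction, normalization, software and chip position are not given in the sources used here. No levels remain, so no filter on dim probes was used, and the small number of arrays limits the precision.

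The 12 HCT116 arrays were fitted with limma 3.58.1 (R 4.3.3; lmFit, eBayes) with the clone as a factor of 6 levels, and clone 15 was contrasted with clone 20, two-sided, with Benjamini-Hochberg adjustment over 47323 probes. The script was tested on simulated data. One symbol was given for 30113 probes, several for 8 and none for 17202, and 30074 were updated by Entrez identifier with RefSeq GRCh38.p14, which also gave gene order and promoter sequence. Each of 20046 genes (6691 with several probes) was read through its probe of largest variance over clones 23, 10, 21 and 28. Genes named were the 15 with the largest difference each way past the threshold, up to 5 members of each list with the largest difference, and shelterin genes; other members named with a value were chosen after their values were seen. Members and lists were chosen with earlier results of these data known, and the lists of Ro60 partners, clock and sarcomere genes after the values of this comparison.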

Additional observations from a re-analysis of the deposited data

How the results depend on the processing

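Leaving out 1 array lowered the 2828 probes past the threshold to between 839 and 1592, those higher in clone 15 to between 402 and 1076 and those higher in clone 20 to between 437 and 516, with fewer arrays in the fit. Tested against a change of 1.2-fold (limma treat), 300 probes passed, 132 higher in clone 15 and 168 in clone 20. At 1.5-fold without overlap there were 873 probes in place of 88. Centring each array, the 4 arrays alone, the spread of 20 arrays, a robust prior, probes with 1 symbol and 1 row per gene gave 2273 to 3437 probes. For clones 10 and 28 the range without 1 array was 405 to 548, and centring gave 1140 in place of 1024. Without 1 array the list medians ranged from 0.28 to 0.39 for DNA replication, 0.085 to 0.17 for mitosis, 0.24 to 0.27 for epithelial junctions, -0.13 to -0.09 for mesenchymal genes, -0.12 to -0.053 for interferon-stimulated genes and 0.31 to 0.40 for cholesterol synthesis. The interferon median was -0.068 over the mean of each gene's probes and, with the probe chosen over HT1080, -0.045, where the cholesterol median was 0.24. The highest chromosome median ranged from 0.011 to 0.071 and the lowest from -0.038 to 0.018, so chromosome medians had no stable sign (0.018 without clone 15 replicate 1, 0.01 without clone 20 replicate 1). Other values that changed sign without 1 array were the medians of intestinal genes (-0.11 to 0.0035), retinal pigment epithelium genes (-0.18 to 0.027) and sarcomere genes (-0.015 to 0.011, also 0.01, and 0.017 with the HT1080 probe), and TERF1 (-0.17 to 0.20, also -0.062), POT1 (-0.30 to 0.044) and ACD (-0.019 to 0.26), none of which passed in any setting. The cause of these shifts was not tested.

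Replicate numbers did not pair the samples: the difference between replicates 1 and 2 correlated across probes at -0.0517 between clones 15 and 20 and at -0.157 to 0.145 over the 15 clone pairs, with 2 pairs over 0.1. With the replicate number as a block, 2728 probes passed, and 982 for clones 10 and 28.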

Other observations

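Circadian clock genes, listed after DBP had been seen among the largest differences, included 5 that passed, all higher in clone 20. These were 5 of 18 measured genes (27.8%, against 3.49% of all genes), and the median was -0.14. DBP is among the 5, and because it prompted the list it was certain to count. None was higher in clone 15 past the threshold by limma, or at an unadjusted p under 0.05. BHLHE40, a repressor of the clock loop, read -0.86 and -0.88 in clone 15 and 0.10 and 0.13 in clone 20 (-0.99 ± 0.11, limma, adjusted p = 3.90e-05). NPAS2, a partner of BMAL1, differed by -0.45 ± 0.11, PER3 by -0.44 ± 0.12 and HLF, a factor of the same family as DBP, by -0.42 ± 0.11. CLOCK, BMAL1, CRY1 and PER2 stood at -0.0016, 0.11, 0.075 and -0.14 and did not pass. DBP and BHLHE40 alone passed in each of the 4 fits without 1 array. No source used here gives the time of harvest, and its part in these values was not tested.

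The TNF family genes TNFSF18 and TNFSF4, neighbours on chromosome 1 noted after their values were seen, were both higher in clone 20. TNFSF18 read -0.32 and -0.50 in clone 15 and 0.78 and 0.88 in clone 20 (-1.24 ± 0.12). TNFSF4 read -0.70 and -0.68 against 0.44 and 0.56 (-1.19 ± 0.10), with -0.24 from its second probe. Clone 20 was not alone in being high. For TNFSF18 clone 10 had the same mean, 0.83. For TNFSF4 clones 10 and 23 had means of 1.80 and 0.79, above the 0.50 of clone 20.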
